A study of Arabidopsis thaliana with 9 samples.

Results

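The genes described here were nearly silent in control and warmed Arabidopsis leaves and were read in every heat-shocked leaf library. They were chosen by their raw counts, with at most 5 counts in each control and each warmed library and at least 15 in each heat shock library. In all, 22 of 33602 genes met both limits. Of these, 3 mitochondrial genes and 4 well-known heat genes (APX2, HSP17.6II, HSP23.6-MITO and FTSH6) were set aside by the rule, which left 15 genes. The counts of all 9 libraries chose these genes, so their levels are given as a description, with no test.

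All plants were wild-type Columbia (Col-0), grown in chambers with a long day, and all leaves were taken 30 days after sowing. Control plants (CK) had days of 23 °C and nights of 18 °C. Plants under prolonged warming (PW) were moved 23 days after sowing to days of 28 °C and nights of 23 °C, where they stayed for 7 days, and those under heat shock (HS) spent 6 h of their last light period at 38 °C. Leaf RNA was sequenced as 3 biological replicates per treatment.

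A heat shock unfolds proteins, and plant cells answer within minutes through heat shock factors. These transcription factors bind heat shock elements, inverted repeats of GAA and TTC, in front of chaperone genes. Small heat shock proteins are chaperones that hold unfolded proteins in a state from which HSP70 and HSP100 can refold them, and many of their genes are almost unread at mild temperature. Abscisic acid, the hormone of water shortage and seed drying, acts on other genes through a short element with the core ACGT, among them genes of late embryogenesis abundant (LEA) proteins, which protect dry cells.

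Library totals ranged from 11660970 to 17768334 counts. The limit of 5 counts thus stood for 0.281 to 0.418 CPM (the count scaled to the library total) in CK and PW. The limit of 15 counts stood for 1.09 to 1.29 CPM in HS. HS replicate 3 stood apart. Pearson's r of log2 CPM across genes, which are not independent replicates, was 0.987 between HS replicates 1 and 2 and 0.912 between either of them and HS replicate 3. With that library left out of the rule, 22 genes met the limits, the 15 and 7 more. Mitochondrial genes held 572, 1273 and 336 CPM of the library total in HS replicates 1, 2 and 3, against 164 to 200 in CK and 61.7 to 86.1 in PW. All 5 leaf mesophyll markers were read in every library. Their sum was 14840 to 18243 CPM of the library total in CK, 40508 to 42661 in PW and 24472 to 29561 in HS. Of 6 root markers, 4 were at 0 in every HS library and the sum was 0 to 197 counts, nearly all from PYK10, which had 3, 0 and 194 counts in HS replicates 1, 2 and 3. In CK the root sum was 249 to 531 counts and in PW 2 to 630. All 4 pollen and tapetum markers were at 0 in the PW and HS libraries and summed to 0 to 43 counts in CK. The part of these differences in the results below was not tested. In whole leaves, RNA from a few strongly expressing cells and from many weakly expressing ones cannot be told apart.

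Of the 15 genes, 12 are annotated as protein coding and 3 as pseudogenes. Pseudogenes were thus 3 of 15, against 0.760% of the 18815 tested genes with an annotation. Their median exon length was 1741 bases, against 1801, and their median number of exons 2, against 4. Together they held 0.0122%, 0.0136% and 0.0110% of the counts of HS replicates 1, 2 and 3. In CK and PW, 50 of the 90 values were 0, 22 of 45 in CK and 28 of 45 in PW. GASA3 was the single gene at 0 in all 6 of these libraries. Low is therefore not the same as absent, and 5 of the genes reached the limit of 5 counts in at least 1 CK or PW library.

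**Figure D1:**
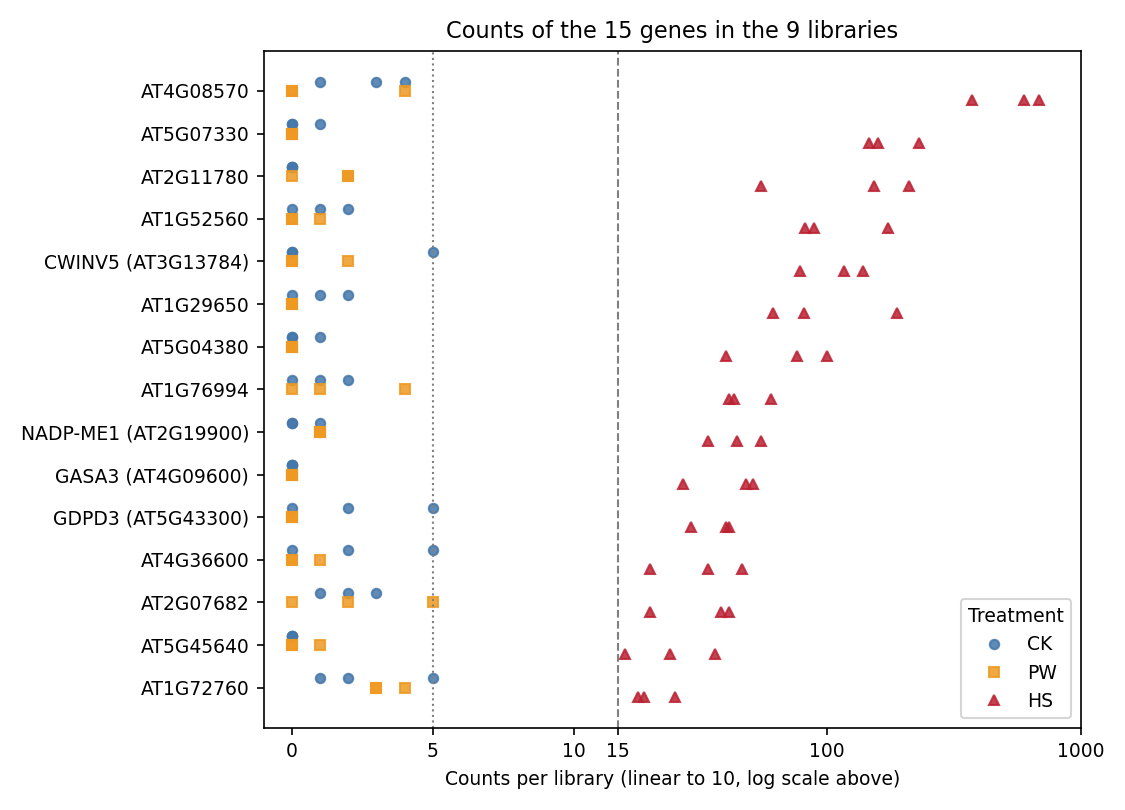
Counts of each of the 15 genes (rows) in the 9 libraries, with 1 symbol per library, on an axis that is linear to 10 counts and logarithmic above; the dotted line marks 5 counts and the dashed line 15. By the rule the HS triangles lie right of 15 and the CK and PW symbols at or left of 5, and the HS counts run from 16 (AT5G45640) to 686 (AT4G08570).

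A gene was called where edgeR's fit over all genes gave it a 2-fold or larger change with an adjusted p below 0.05. All 15 genes were called higher in HS vs CK, where 11.3% of the 18952 tested genes were called higher. All 15 were called lower in PW vs HS, where 7.57% of tested genes were called lower and 6.92% higher. In PW vs CK, edgeR called 0 of the 15, beside 8.82% of tested genes called higher and 7.6% called lower. The rule used the counts of all 3 treatments and capped those of CK and PW at 5, so nothing is read from any of these calls. At an unadjusted p under 0.05, edgeR's test gave 1 of the 15, GDPD3, with 5, 2 and 0 counts in CK and 0 in all PW libraries. DESeq2 called AT2G11780, with 0 counts in all CK libraries and 2, 0 and 2 in PW.

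The chaperone among the 15 was AT1G52560, an HSP20-like small heat shock protein on chromosome 1 (19574538 to 19575866, minus strand, 2 exons). It had 82, 89 and 174 counts in HS replicates 1 to 3, 2, 0 and 1 in CK, and 0, 1 and 0 in PW. Its count was highest in HS replicate 3. The HS level was 8.88 ± 3.56 CPM (TMM-scaled here and from here on, SD, n = 3). It was 164-fold above CK, with a 95% counting interval of 55.5 to 797. Such intervals, here and for the other genes, cover counting error over the summed libraries of a treatment only and not the spread between replicates.

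AT1G52560 was far below the best-known small heat shock proteins. The 15 heat genes left out by name had HS levels with a median of 154 CPM and a range of 6.07 to 3064. Of these, 11 were above the limit of 5 counts in at least 1 CK or PW library. HSP17.4 had 5739, 5586 and 7772 counts in HS, 2, 0 and 1 in CK, and 7, 4 and 16 in PW. All 15 were called higher in HS vs CK by edgeR and 6 in PW vs CK, beside the 11.3% and 8.82% of all tested genes. Among 4 further small heat shock genes that include AT1G52560, the other 3 were called too. They were AT2G19310 (log2 fold change 1.97, SE 0.215), AT1G54050 (1.75, SE 0.317) and AT4G21870 (1.20, SE 0.331, adjusted p = 0.0191 by edgeR). The call of AT4G21870 was lost with library size alone and when any of 4 libraries was left out.

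The gene with the highest level was AT4G08570 on chromosome 4 (5454580 to 5456100, minus strand, 2 exons), a protein of the heavy metal transport and detoxification family, whose members carry a metal-binding domain. It had 599, 686 and 372 counts in HS replicates 1 to 3, 4, 1 and 3 in CK, and 0, 0 and 4 in PW. Its lowest HS count was also the highest such minimum of the 15. The HS level was 43.6 ± 14.7 CPM, 295-fold above CK (95% counting interval 149 to 684) and 343-fold above PW (134 to 1259). It alone held 35.7%, 40.0% and 28.9% of the 15 genes' counts in HS replicates 1, 2 and 3. Of 28 other tested genes with the same family name, 6 were called higher and 5 lower in HS vs CK by edgeR. The shares over all tested genes were 11.3% and 10.5%. The median log2 fold change of the 28 was -0.52, against 0.03 over all tested genes.

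AT5G07330 (chromosome 5, 2315947 to 2316874, plus strand) had the second-highest level and carries the product name NFU1 iron-sulfur cluster protein. NFU proteins are scaffolds that pass iron-sulfur clusters on to enzymes, and whether this gene has that role is not stated in the annotation. Its counts were 146, 158 and 230 in HS replicates 1 to 3, 0, 1 and 0 in CK, and 0 in all PW libraries. A single read separated the CK libraries from 0. The HS level was 13.8 ± 2.98 CPM, 760-fold above CK (95% counting interval 136 to 30058) and at least 147-fold above PW, where the floor is 3 counts over the treatment. AT1G76994, a gene of 1 exon for an uncharacterized protein, had 41, 43 and 60 counts in HS replicates 1 to 3, 2, 1 and 0 in CK, and 4, 0 and 1 in PW. Like AT5G07330 it was highest in HS replicate 3.

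A LEA gene, a malic enzyme gene and a peptide gene were also among the 15. LEA proteins build up as seeds dry, NADP-malic enzyme 1 (NADP-ME1) turns malate into pyruvate and makes NADPH, and GASA3 belongs to the small cysteine-rich peptides that respond to gibberellin. The LEA gene AT4G36600 had 34, 20 and 46 counts in HS replicates 1 to 3, 2, 5 and 0 in CK, and 0, 0 and 1 in PW. NADP-ME1 (AT2G19900, 19 exons) had 34, 44 and 55 counts in HS, 1, 0 and 0 in CK, and 1 in each PW library. GASA3 (AT4G09600) had 48, 51 and 27 counts in HS and 0 in the other libraries. The first and second of these were highest in HS replicate 3 and GASA3 was lowest there. Their HS levels were 2.57 ± 0.889, 3.45 ± 0.744 and 3.31 ± 1.15 CPM (SD, n = 3). AT4G36600 was 20.3-fold above CK (95% counting interval 9.51 to 51.8) and 82.7-fold above PW (14.5 to 3300). NADP-ME1 was 36.7-fold above PW (12.3 to 180) and, with 1 read in all of CK, 189-fold above CK (33.4 to 7528). GASA3 was at least 59.7-fold above CK and at least 34.7-fold above PW.

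Seed storage and oil body genes were at or near 0 in the same libraries. Of 10 seed markers, 8 were at 0 in every HS library, and the list summed to at most 6 counts in an HS library. Among the HS libraries, both exceptions were read in replicate 3 alone, with 4 counts of the oleosin gene OLEO1 and 2 of the storage protein gene CRA1.

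Relatives with the same product name were tested for NADP-ME1 and GASA3, and none was in the table for AT4G36600. NADP-ME2, the main leaf form, had 2227, 1798 and 1578 counts in HS against 8826, 8747 and 6915 in CK, and fell by 1.62 on the log2 scale (SE 0.192, adjusted p = 0.000431 by edgeR). NADP-ME4 was not called, with a log2 fold change of -0.25 (SE 0.175). NADP-ME3 had 0, 0 and 37 counts in HS and 69, 45 and 38 in CK. Its call depended on HS replicate 3, with a log2 fold change of -1.55 and no call with that library and -8.26 and a call without it. Among the gibberellin-responsive peptides, GASA1 rose by 3.55 on the log2 scale (SE 0.378), with 4160, 3959 and 2248 counts in HS against 595, 381 and 318 in CK. GASA4 had 102, 110 and 2911 counts in HS and 4511, 3806 and 3556 in CK. In CPM, HS replicate 3 was within the range of the CK libraries for both NADP-ME3 (2.75, against 2.43 to 3.19) and GASA4 (216.6, against 208.6 to 227.3), and GASA4 was called lower (log2 fold change -4.68) only in the fit without that library. GASA5 was not called (0.11, SE 0.705), and its sign turned with the scaling, to -0.0737 with library size alone.

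Several of the 15 genes encode enzymes. Cell wall invertase 5 (CWINV5, AT3G13784), named for the enzymes that split sucrose outside the cell, had 117, 138 and 78 counts in HS replicates 1 to 3, 5, 0 and 0 in CK, and 0, 0 and 2 in PW. AT5G04380, a methyltransferase that takes its methyl group from S-adenosylmethionine, had 100, 76 and 40 counts in HS, 0, 1 and 0 in CK, and 0 in all PW libraries. Both were lowest in HS replicate 3, and the rule itself set every HS count above every CK and PW count. Their HS levels were 8.75 ± 2.80 and 5.67 ± 2.45 CPM (SD, n = 3). CWINV5 was 94.7-fold above CK (95% counting interval 40.2 to 294). AT5G04380 was 307-fold above CK (54.6 to 12191) and at least 59.6-fold above PW. GDPD3 (AT5G43300), of the glycerophosphodiester phosphodiesterases that free glycerol-3-phosphate from lipid remnants, had 40, 41 and 29 counts in HS, 5, 2 and 0 in CK, and 0 in all PW libraries. Its HS level of 2.88 ± 0.641 CPM was 22.4-fold above CK (10.5 to 56.9) and at least 30.3-fold above PW.

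The protease AT5G45640, a subtilisin-like serine endopeptidase, had 36, 24 and 16 counts in HS replicates 1 to 3, 0 in all CK libraries, and 0, 0 and 1 in PW. Its lowest HS library held 1 count more than the rule required. The HS level was 1.99 ± 0.801 CPM, at least 36.0-fold above CK. Of 5 other tested subtilisin-like genes with the same product name, 3 were called higher in HS vs CK by edgeR and 0 lower. The shares over all tested genes were 11.3% and 10.5%. Those called were ATSBT5.2 (log2 fold change 1.88, SE 0.412), AIR3 (1.42, SE 0.338) and AT5G03620 (2.47, SE 0.515). AT5G03620 was called higher in PW vs CK as well, by 3.19 (SE 0.516). All 3 were read in CK, from 3 counts in a library for AT5G03620 to 515 for AIR3.

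The protein kinase AT1G72760 was the least separated of the 15. It had 19, 18 and 25 counts in HS replicates 1 to 3, 5, 2 and 1 in CK, and 3, 4 and 3 in PW. It was read in all 9 libraries. The HS level of 1.61 ± 0.220 CPM was 5.13-fold above PW (95% counting interval 2.61 to 11.2), and the interval of its ratio to CK ran from 5.26 to 26.7. Of 244 other tested genes with the same product name, 21 were called higher and 23 lower in HS vs CK by edgeR, beside 11.3% and 10.5% of all tested genes.

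Of 108 tested methyltransferases with the product name of AT5G04380, 8 were called higher and 16 lower in HS vs CK by edgeR, beside the same 11.3% and 10.5%. Of 10 phosphodiesterases with the product name of GDPD3, GDPD4 rose by 1.82 on the log2 scale (SE 0.191) and AT4G34930 fell by 2.19 (SE 0.599, adjusted p = 0.0186 by edgeR), a call that was lost when any of 3 libraries was left out. Of 27 tested HSP20-like genes besides AT1G52560, 10 were called higher and 1 lower, and the left-out small heat shock proteins are in part among them. These families were chosen with the 15 genes known.

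The 3 pseudogenes need caution because reads can match other copies. AT1G29650 (chromosome 1, 5590 bases in 1 exon) had 189, 81 and 61 counts in HS replicates 1 to 3, 2, 0 and 1 in CK, and 0 in all PW libraries. Its HS level of 8.63 ± 5.33 CPM had the largest spread relative to the mean of the 15, a coefficient of variation of 61.8%. The closest copy, on chromosome 3, was the best of 24 matches, with 1370 mismatches over 5596 aligned bases, and the gene of the count table there, AT3G24675, had 0, 0 and 1 counts in HS. AT2G11780 (chromosome 2, 3289 bases) had 153, 210 and 55 counts in HS, 0 in all CK libraries, and 2, 0 and 2 in PW. It was lowest in HS replicate 3, at 0.281 times the mean of replicates 1 and 2. It was at least 198-fold above CK and 86.5-fold above PW (95% counting interval 33.5 to 319). The search found 443 other matches to it in the genome, of which 2 reached 95% identity over 100 bases. The best match was 93.6% identical over 1166 bases, and the gene of the count table there, AT5G33240, had 0 counts in every library. The counts of AT2G11780 may be shared with other copies of the repeat, which was not tested.

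AT2G07682 lies in the stretch of mitochondrial DNA carried by chromosome 2 (3292516 to 3297403, minus strand). It had 41, 38 and 20 counts in HS replicates 1 to 3, 1, 3 and 2 in CK, and 5, 0 and 2 in PW. Its sequence matched the mitochondrial genome of the TAIR10.1 assembly (310583 to 315470) over all 4888 bases with 4 differences. Counting from 1 at the lowest chromosome 2 coordinate, nuclear base first, these were A483G, C769G, T1870C and A2626G. The longest stretch without a difference was 2262 bases. The pair around the first difference is shown because so little separates the copies, on the plus strand at chr2:3292983-3293013 and at bases 311050 to 311080 of the mitochondrial genome, with the differing base in capitals.
AT2G07682 nuclear: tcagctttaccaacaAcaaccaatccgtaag
AT2G07682 mitochondrial: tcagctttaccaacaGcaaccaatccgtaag
Its reads and those of mitochondrial transcripts cannot be told apart in a gene-level table. From HS replicate 1 to 2, mitochondrial genes went from 572 to 1273 CPM of the library total and AT2G07682 from 3.18 to 3.13 CPM (TMM-scaled). In HS replicate 3, AT2G07682 had a log2 ratio of -1.08 to the mean of replicates 1 and 2. The median ratio was -1.24 over 33 mitochondrial genes with at least 15 counts in each HS library, 32 of them below 0. Over 11983 genes of like HS level it was 0.01. The share of mitochondrial reads in the counts of AT2G07682 was not tested. Of the protein-coding genes among the 15, none had another match of at least 95% identity over 100 bases, and AT1G52560, AT4G08570 and AT5G07330 had no other match at the search limit.

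Counts favour long genes, so the order of levels was set per length, as RPKM (TMM-scaled CPM per kilobase of exon). The mean RPKM in HS was 38.9 for AT4G08570, 16.3 for AT5G07330, 8.51 for AT1G52560 and 7.77 for AT1G76994. The means of the last pair differed by less than the SD of 3.41 of AT1G52560. GASA3 (5.18), CWINV5 (4.45), AT5G04380 (3.95) and AT2G11780 (3.37) followed, and neighbours within these 4 differed by less than the SD of either. The levels of AT4G36600, GDPD3, NADP-ME1 and AT1G29650 lay between 1.88 and 1.54 RPKM and were likewise within their spread. AT5G45640 (0.877), AT1G72760 (0.612) and AT2G07682 (0.532) came last, and neighbours among them differed by less than the larger of their SDs. The median over the 15 was 3.37 RPKM, against 10.6 RPKM over the 16181 genes with at least 15 counts in each HS library and 69.7 RPKM over the 15 left-out heat genes. AT4G08570 and AT5G07330 were above that median of 10.6.

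**Figure D2:**
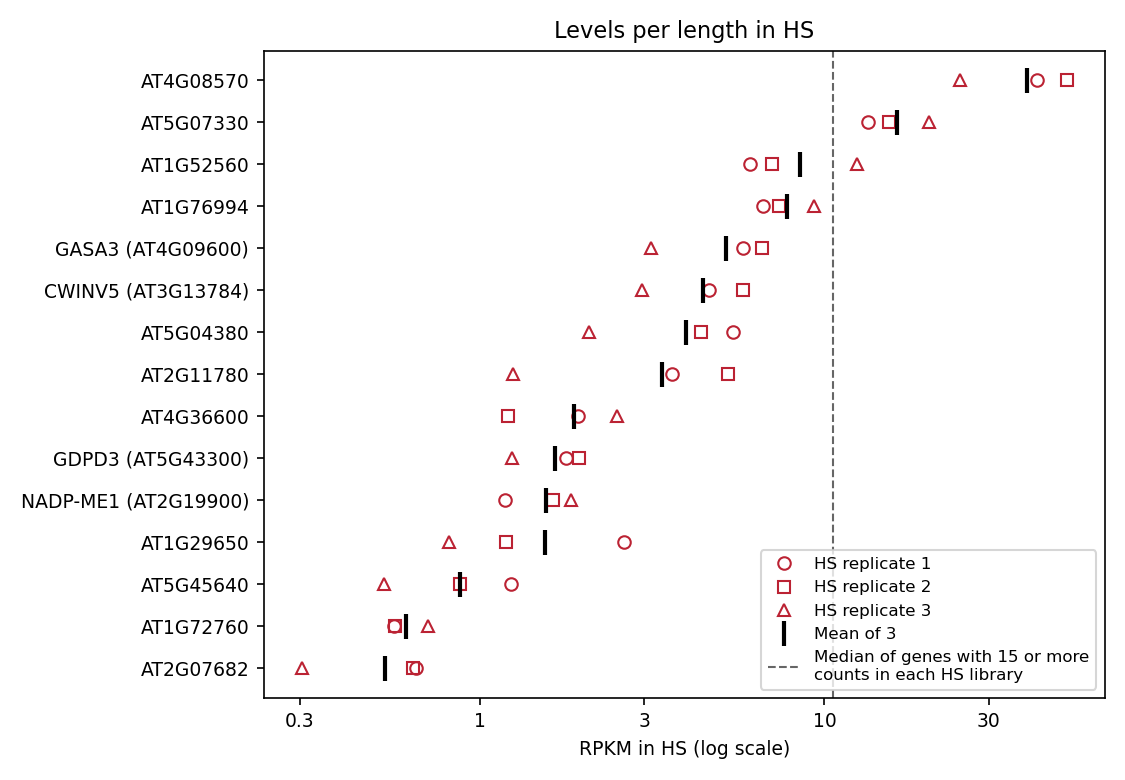
Level of each of the 15 genes in HS per kilobase of exon (RPKM, log axis), with an open symbol for each HS replicate and a black bar for the mean of 3; the dashed line is the median of 10.6 RPKM over genes with at least 15 counts in each HS library. AT4G08570 and AT5G07330 lie right of the line with their means, the triangle of HS replicate 3 is the lowest symbol in 9 genes, and it is the highest in 6.

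The 15 genes split over HS replicate 3. Their TMM-scaled log2 ratio of HS replicate 3 to the mean of replicates 1 and 2 had a median of -0.82, with 9 genes below 0 and 6 above. For the 11983 genes of like HS level the median was 0.01, the middle 50% ran from -0.33 to 0.38, and 49.2% were below 0. AT2G11780 (-1.83), AT5G04380 (-1.24), AT1G29650 (-1.23), AT2G07682 (-1.08) and AT5G45640, at 0.499 times the mean of the other replicates, were the lowest. AT1G52560 (0.92), AT4G36600 (0.68), AT5G07330 (0.49), AT1G76994 (0.41) and NADP-ME1 (0.39) were the highest. The chaperone, the LEA gene and NADP-ME1 were thus on the high side, and the pseudogenes, CWINV5 (-0.82), AT4G08570 (-0.90) and GASA3 (-0.98) on the low side. The 15 left-out heat genes had a median of 0.21 and were split too, from HSP21 (-1.57) and FTSH6 (-1.43) to ATHSP22.0 (1.49). With 1 library on one side, the ratio has no replicate check. With library size alone in place of TMM the median over the 15 was -0.54.

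**Figure D3:**
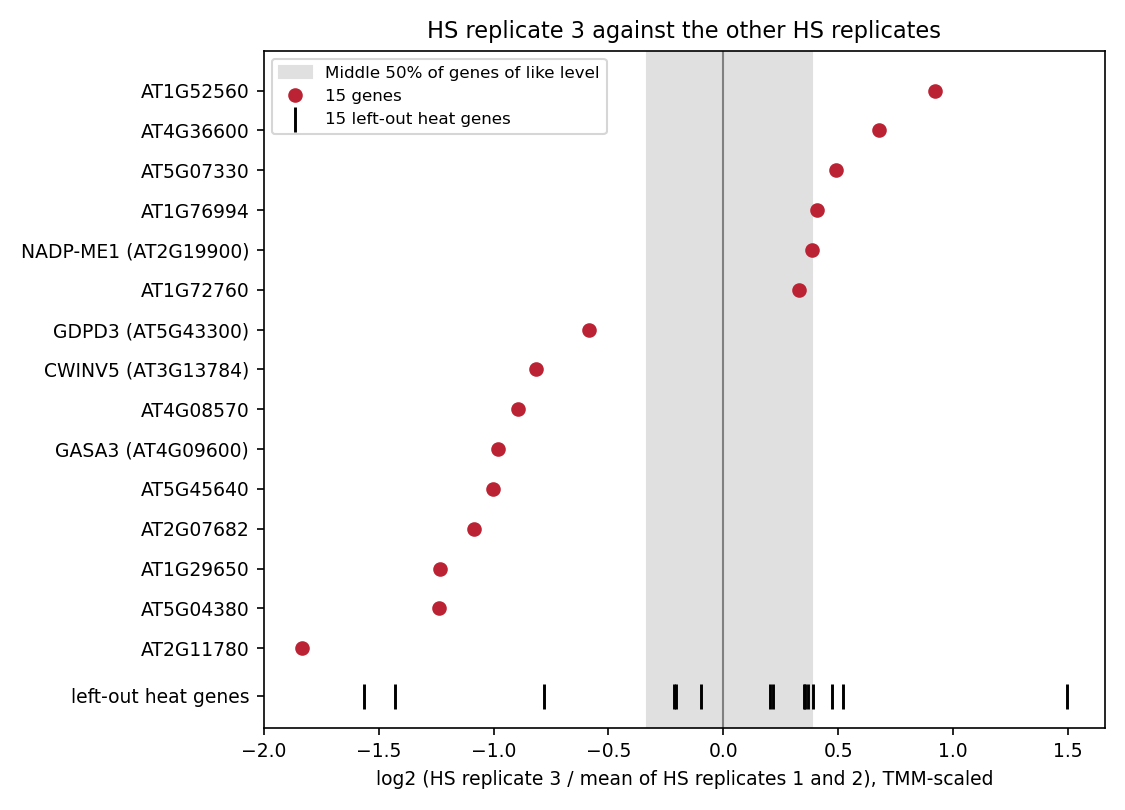
Log2 ratio of HS replicate 3 to the mean of HS replicates 1 and 2 for each of the 15 genes (red points) and, in the bottom row, for the 15 left-out heat genes (black ticks); the grey band is the middle 50% of 11983 genes of like level, from -0.33 to 0.38. In the plot, 9 genes lie left of the band, from -1.83 to -0.59, AT1G72760 lies inside it at 0.33, and 5 lie at its right edge or beyond, from 0.39 to 0.92.

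Genes near the 15 on the chromosome were not used by the rule, so their changes were tested. Within 2500 bases lay 31 other genes, of which 19 had enough counts. In HS vs CK, edgeR called 5 of these 19 higher (26.3%, against 11.3% of all tested genes) and 1 lower (5.26%, against 10.5%), and 13 were not called. None of the 15 lay within 2500 bases of another.

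The largest rise was that of NAMT1, a nicotinate methyltransferase gene 564 bases from its relative AT5G04380, at a log2 fold change of 4.34 (SE 0.858, adjusted p = 0.00446 by edgeR). NAMT1 had 16, 29 and 30 counts in HS, 4, 1 and 0 in CK, and 5, 1 and 8 in PW, so it missed the limits through PW replicate 3. A pair of genes with the same product name, senescence regulator of the DUF584 family, lay beside different members of the 15. AT1G29640, beside the pseudogene AT1G29650, had 298, 301 and 124 counts in HS and 47, 7 and 13 in CK (log2 fold change 4.02, SE 0.674, adjusted p = 0.00207 by edgeR). AT5G45630, beside the protease AT5G45640, had 224, 434 and 104 counts in HS and 69, 23 and 15 in CK (3.44, SE 0.659, adjusted p = 0.00384 by edgeR). Both had their lowest HS count in replicate 3, as did the genes they lie beside. HAB1, a phosphatase that holds back abscisic acid signalling, lay 1413 bases from the kinase AT1G72760 and rose by 2.56 on the log2 scale (SE 0.324), with 3371, 3032 and 2021 counts in HS against 864, 608 and 580 in CK. The subtilase gene AT5G45650, 1510 bases from AT5G45640, rose by 1.74 (SE 0.165). It was called higher in PW vs CK too, by 1.62 (SE 0.164). Unlike the DUF584 pair, NAMT1, HAB1 and AT5G45650 had their lowest HS count in another replicate than the genes they lie beside.

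The 1 neighbour called lower was another cell wall invertase gene, ATBFRUCT1 (AT3G13790), 2048 bases from CWINV5 on the same strand. It had 8, 10 and 11 counts in HS, 172, 178 and 143 in CK, and 37, 19 and 17 in PW. The 3 treatments did not overlap. It fell by 3.58 on the log2 scale in HS vs CK (SE 0.314, adjusted p = 0.000132 by edgeR). The rule itself set CWINV5 higher in HS, so only the fall of ATBFRUCT1 was free to vary. The best aligned stretch of these adjacent invertase genes was 71.8% identical over 1071 bases. CWINV5 also overlaps NAP1;4, on the opposite strand, by 285 bases. NAP1;4 had 37, 39 and 34 counts in HS and 33, 21 and 29 in CK and was not called (log2 fold change 0.91, SE 0.332, adjusted p = 0.0557 by edgeR). Whether the counting used strand is not given in the sources used here, so reads in the overlap cannot be assigned to either gene.

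**Figure D4:**
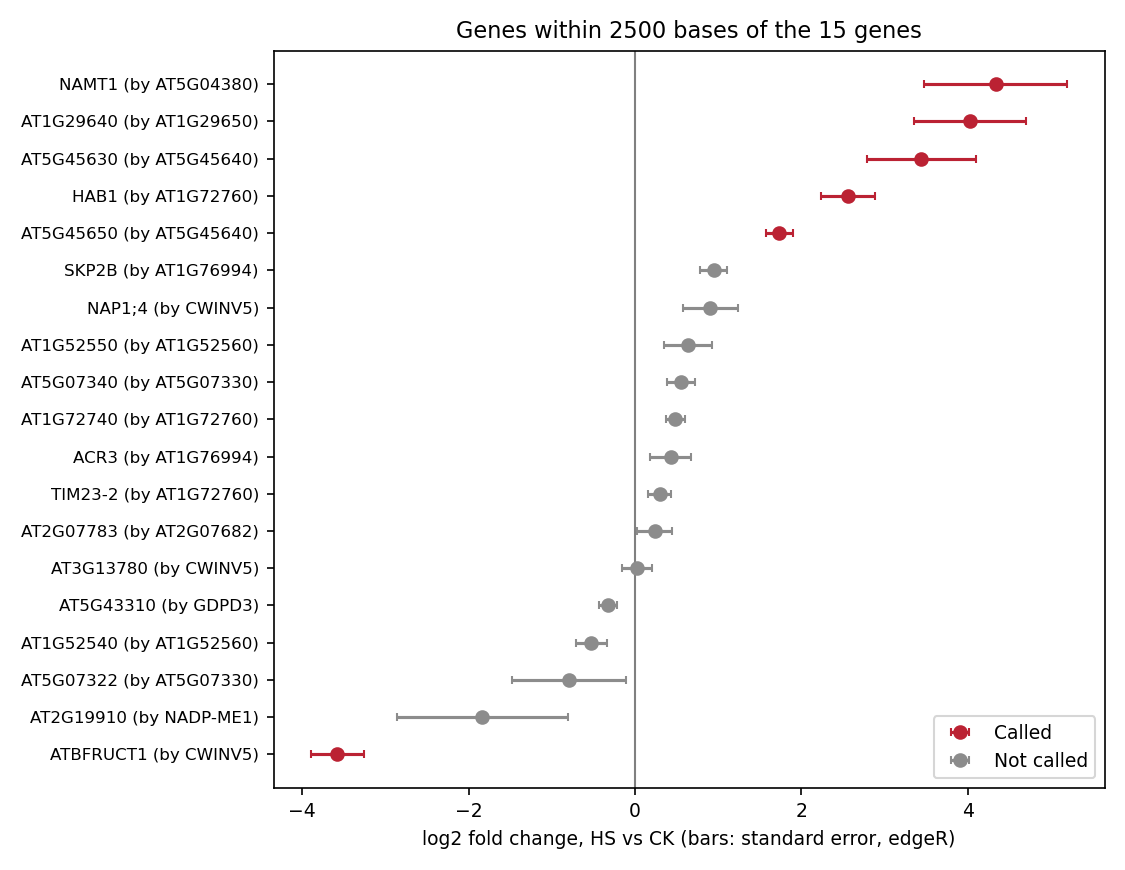
Log2 fold change in HS vs CK, with standard errors from edgeR as bars, of the 19 tested genes within 2500 bases of the 15 genes; each row names the gene it lies beside, and called genes are red. The 5 red points right of 0 run from 1.74 (AT5G45650) to 4.34 (NAMT1), and ATBFRUCT1 lies alone at -3.58.

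Heat shock elements were searched in front of the genes as letters in the TAIR10.1 genome, from 250 bases before to 50 after the annotated start, on both strands. The 2-unit element was GAANNTTC or TTCNNGAA. The 3-unit element, which contains both, was GAANNTTC followed by NNGAA or TTCNNGAA followed by NNTTC. The 3-unit element was found for 0 of the 15 genes, 2 of the 15 left-out heat genes (13.3%), 0.472% of 37897 nuclear genes, and 1.39% of genes called higher in HS vs CK. The 2-unit element was found for 5 of the 15 (33.3%), 10 of the 15 left-out genes (66.7%), 19.4% of nuclear genes, and 20.3% of genes called higher. All 5 were among the 12 protein-coding genes (41.7%), and none was a pseudogene. With 1000 bases before the start, a window chosen after the first counts were seen, the 3-unit element was again found for 0 of the 15, against 1.72% of nuclear genes. The 2-unit element was found there for 11 of the 15 (73.3%), against 52.5% of nuclear genes. A match is a description of letters, and its absence in these windows says nothing of the factors.

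The 5 matches among the 15 genes are shown with the 2-unit element in capitals, read 5′ to 3′ in the direction of the gene, below the 3-unit match of the left-out gene AT1G53540 for comparison. They lie at chr1:19980226-19980278 (plus strand) for AT1G53540, chr1:19575887-19575934 (minus) for AT1G52560, chr1:27388548-27388595 (minus) for AT1G72760, chr4:5456292-5456339 (minus) for AT4G08570, chr4:17263327-17263374 (plus) for AT4G36600, and chr5:1234665-1234711 (plus) for AT5G04380.
AT1G53540: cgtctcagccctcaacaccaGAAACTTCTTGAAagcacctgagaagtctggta
AT1G52560: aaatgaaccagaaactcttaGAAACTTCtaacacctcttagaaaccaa
AT1G72760: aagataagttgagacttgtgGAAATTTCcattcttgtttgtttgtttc
AT4G08570: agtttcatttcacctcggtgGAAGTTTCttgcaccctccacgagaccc
AT4G36600: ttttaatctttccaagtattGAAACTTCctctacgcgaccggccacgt
AT5G04380: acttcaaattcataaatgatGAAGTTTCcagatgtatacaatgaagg
All 5 were of the form GAANNTTC, as was a second match of AT4G36600 in the 50 bases after the start, not shown. The first base of the match shown lay 48 bases before the annotated start in AT1G52560, 41 in AT1G72760 and 27 in AT5G04380. It lay 219 and 217 bases before the start in AT4G08570 and AT4G36600. The chaperone gene and the gene with the highest level were thus among those with a match. AT5G07330, the second in level, had none in this window.

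The abscisic acid response element was searched as ACGTGGC or ACGTGTC on both strands, a motif chosen with the 15 genes known. It was found for 2 of the 15, NADP-ME1 and AT4G36600 (13.3%), for 2 of the left-out genes (13.3%), for 6.50% of nuclear genes, and for 15.3% of genes called higher in HS vs CK. In the 1000 bases before the start it was found for 4 of the 15 (26.7%), against 12.6% of nuclear genes. The LEA gene held 4 matches in a stretch of 183 bases, shown with the 1 of NADP-ME1 because these are the matches of the shorter window. The stretches are chr4:17263348-17263530 (plus strand) and chr2:8595570-8595616 (minus strand), with the element in capitals.
AT4G36600: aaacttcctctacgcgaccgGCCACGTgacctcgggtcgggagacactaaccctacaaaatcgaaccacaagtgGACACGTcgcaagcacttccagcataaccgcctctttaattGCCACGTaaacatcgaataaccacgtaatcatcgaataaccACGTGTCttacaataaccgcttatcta
NADP-ME1: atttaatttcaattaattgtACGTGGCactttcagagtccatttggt
The LEA gene was the single member with a match to both elements in the shorter window.

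**Figure D5:**
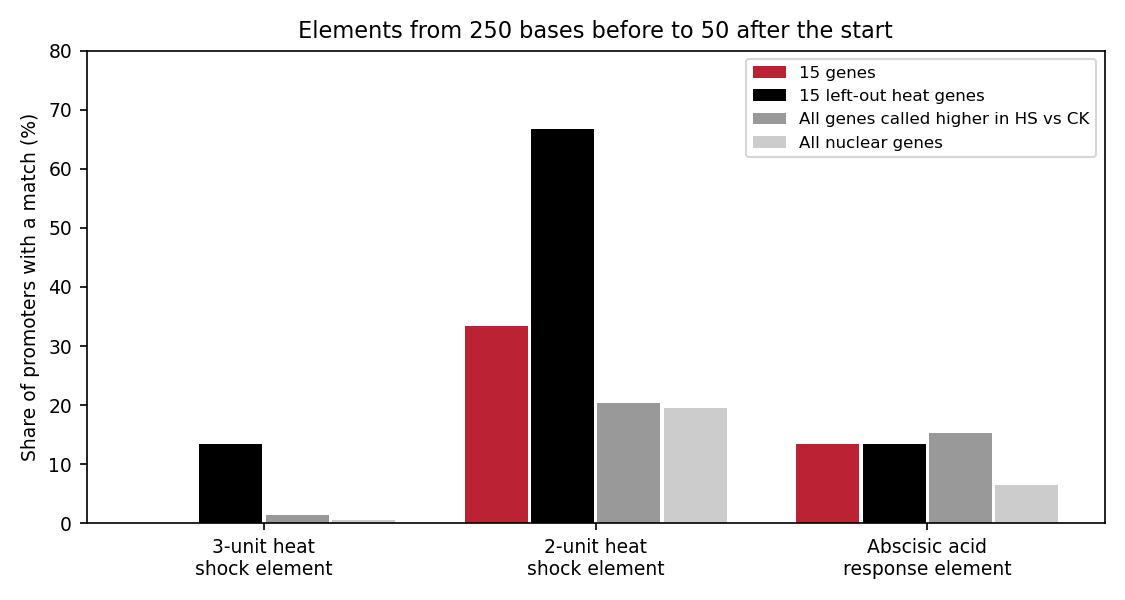
Share of promoters with at least 1 match (%, bars from 0) to the 3-unit and 2-unit heat shock elements and to the abscisic acid response element, for the 15 genes, the 15 left-out heat genes, all genes called higher in HS vs CK and all nuclear genes. The 15 genes have no bar for the 3-unit element, 33.3% for the 2-unit element against 66.7% in the left-out genes, and 13.3% for the abscisic acid element.

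The wider heat and drought programme in the same leaves was given by lists of known genes, named by their highest HS level. Of all tested genes, 11.3% were called higher and 10.5% lower in HS vs CK by edgeR. Of 26 tested HSP100, HSP90, HSP70 and partner genes, 15 were called higher and 6 lower, with a median log2 fold change of 1.54. HSP70 (4.30, SE 0.189), HSP90.1 (3.64, SE 0.169) and CLPB3 (2.11, SE 0.416) rose. HSC70-1, the constitutive form, fell by 1.29 (SE 0.444, adjusted p = 0.0448 by edgeR). It had 5869, 5450 and 20559 counts in HS and 42945, 33115 and 32558 in CK, so HS replicate 3 stood apart. The call was lost in 10 of 14 alternative fits, but not in the fit without HS replicate 3. None of these 4 came near the limits of the rule, since their mean CK levels were 14.3 CPM or more. Of 16 tested heat shock factors, 4 were called higher and 1 lower. HSFB2A, with the highest HS level, rose by 2.06 (SE 0.444). The next in level, HSF3 (0.35, SE 0.192), HSFA8 (-0.82, SE 0.298) and AT-HSFB2B (0.83, SE 0.172), were not called. HSFA8 was called lower with library size alone and without HS replicate 2. Of 6 DREB2 factors, which act in drought and heat, 1 was called higher and 1 lower. DREB2A was the one that rose, by 1.27 (SE 0.401, adjusted p = 0.0332 by edgeR). Its call was lost when any of 4 libraries was left out and with library size alone. DREB2B (0.73, SE 0.290), AT3G57600 (0.28, SE 0.544) and DREB2C (-1.54, SE 0.552) were not called.

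The list of abscisic acid, dehydration and LEA genes had the members most like AT4G36600 in name. Of 13 tested, 8 were called higher and 3 lower in HS vs CK by edgeR, with a median log2 fold change of 2.77. The shares over all tested genes were 11.3% and 10.5%. In PW vs CK 1 was called higher and 7 lower, with a median of -2.20, beside 8.82% and 7.6% of all tested genes. GolS1 and GolS2, which make the protective sugar galactinol, rose by 5.15 (SE 0.225) and 1.68 (SE 0.441). The drought and cold gene LTI78 fell by 1.28 (SE 0.407, adjusted p = 0.0336 by edgeR), and COR15A was not called by edgeR (-1.16, SE 0.504) but was called lower by DESeq2 (adjusted p = 0.0420) and by edgeR with library size alone (adjusted p = 0.0340). The calls of LTI78 and GolS2 were lost when any of 5 and any of 3 libraries was left out. AT4G36600 itself was at 2, 5 and 0 counts in CK and 0, 0 and 1 in PW, too few for a direction between these.

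Some genes missed the limits narrowly. The nearest were AT2G07722, AT5G03204, the cadmium resistance gene PCR11, AT3G26742 and AT1G72490, each with a highest CK or PW count of 6, and AT4G31354, with 14 counts in its lowest HS library. AT5G03204 had 92, 112 and 37 counts in HS and 0, 1 and 6 in CK. AT1G72660, annotated as a nucleoside triphosphate hydrolase, had 772, 668 and 918 counts in HS, in replicates 1 and 3 more than any of the 15. It missed the limit of 5 counts with its 7 counts in PW replicate 1. Just inside were AT5G45640 and AT1G72760, with lowest HS counts of 16 and 18, and AT2G07682 and AT4G36600, each with 20 in its lowest HS library and 5 in its highest CK or PW library. Of the copies of ONSEN, a transposon known to be read after heat, AT1G48710 had 15, 38 and 9 counts in HS and 0 in all CK and PW libraries. AT1G48710 missed the limit through HS replicate 3. AT5G13205, the 1 tested copy of the 8 listed, had 53, 53 and 50 counts in HS and 73, 74 and 70 in CK. It was not called in HS vs CK by edgeR (log2 fold change 0.01, SE 0.551). AT1G11265 had 0, 2 and 3 counts in HS, and AT3G59720 had 3, 1 and 0.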

How the data were processed

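The study sequenced leaf RNA of 9 libraries on an Illumina platform. The authors filtered the reads, used TopHat2 to map them to TAIR10, and deposited a table of raw counts per gene. The submitters' processing notes name CASAVA 1.8, TopHat2 and HTSeq 0.6.1. Whether counting used strand, what was done with reads matching several places, and the annotation version are not given in the sources used here. The table had 0 columns of no sample.

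The rule was applied to the raw counts. The members, lists, families and motifs were chosen with earlier results of these data known. The 18952 genes that reached 10 counts in 3 or more libraries were tested in R 4.3.3 with edgeR 4.0.16 (TMM, quasi-likelihood test, all 9 libraries in 1 fit, Benjamini-Hochberg adjustment over all tested genes). DESeq2 1.42.0 was an alternative. Standard errors are the fold change over the root of edgeR's F. Where a library was left out, the filter asked for 10 counts in as many libraries as the smallest treatment then had, chosen after 3 libraries had left no member to test without an HS library. The test was checked on simulated counts with known changes. Counting intervals are exact binomial at 95%. A fold against a treatment at 0 used a floor of 3 counts summed over it.

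Names, positions, exons and sequences came from TAIR10.1 with its RefSeq annotation, in which 32835 identifiers and all 15 members were matched. Copies were searched with BLAST 2.17.0 at an E-value of 1e-20. Figures used matplotlib 3.10.9.

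Named were all members, at most 4 genes a list by highest HS level, and genes just inside and outside the limits. Neighbours, family genes and the ONSEN copies were named after their values were seen.

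The labels number replicates 1 to 3 in each treatment. Deviations of same-numbered CK and PW libraries from their treatment means had correlations of 0.291, 0.310 and 0.136 across genes, each over 0.1. Differently numbered CK and PW libraries had -0.272 to -0.034. Because deviations are taken from the mean of a treatment's own libraries, positive values for some pairs force negative values for others. The correlations of same-numbered HS with CK were -0.319, 0.199 and -0.098, and those of HS with PW were -0.497, 0.450 and 0.085. Differently numbered libraries reached 0.537 (PW replicate 1 with HS replicate 3) and 0.518 (PW replicate 2 with HS replicate 1). The labels state no pairing, and these correlations cannot settle it. The main fit had no block, and the fit with the number as a block is given in the closing section.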

Additional observations from a re-analysis of the deposited data

How the results depend on the processing

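The number of genes that met the limits was 6 with at most 3 counts in CK and PW and at least 30 in HS, 41 with at most 10 and at least 15, 20 in counts downsampled to the smallest library, and 15 to 22 with a library left out. Wider limits and fewer libraries can only add genes, and 9 of the 15 were lost under the narrower limits. They held 0.0123% of HS counts on average and 0.00796% without AT4G08570. With the 2-unit element, the share of the 15 with a heat shock element was 33.3% in place of 0.

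In PW vs CK, 1 of the 15 was called by DESeq2 (AT2G11780, adjusted p = 0.0498) and 1 by edgeR without CK replicate 3 (GDPD3, adjusted p = 0.0488), so the count ranged from 0 to 1 with a library left out. In HS vs CK and PW vs HS it was 15 in every fit, which the rule all but fixes. The numbers of all genes called were 4127 in HS vs CK, 3112 in PW vs CK and 2746 in PW vs HS, and ranged from 3310 to 5963, 2420 to 3742 and 2262 to 3995 with a library left out. The highest value in each comparison came without HS replicate 3. The log2 fold change of GASA5 (AT3G02885) in HS vs CK turned from 0.11 to -0.0737 with library size alone and ranged from -0.0259 (without CK replicate 3) to 0.34 with a library left out.

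With the replicate number as a block, 4067, 2989 and 2528 genes were called in the same order, and 15, 0 and 15 of the 15. The block changed no call of a named gene.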
